A study of Mus musculus with 3 samples.

Results

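CD8 T cells are the lymphocytes that read peptides on class I major histocompatibility molecules through an alpha-beta T cell receptor and the CD8 co-receptor, and 617 such cells were found among the 30973 cells kept from single-cell libraries of mouse lung. They numbered 113 of 9647 kept cells in the library labelled PD00, 239 of 11537 in Model and 265 of 9789 in Control. The cells were chosen by their own transcripts, counted as unique molecular identifiers (UMIs, each standing for 1 captured RNA molecule). A cell needed at least 2 UMIs over Cd3d, Cd3e and Cd3g, which encode the signalling chains of the T cell receptor, and at least 2 over Cd8a and Cd8b1, which encode the co-receptor. It had to have no UMI of Cd4, of Foxp3 or of Trdc, which mark helper, regulatory and gamma-delta T cells, and at most 1 UMI of the B cell gene Cd79a. The levels of those genes are therefore a property of the choice and not a finding.

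Each treatment is 1 library of lung tissue from mice that the labels give as 3 months old, made with a 3' droplet kit. The series' title names ovalbumin (OVA, the antigen of a common model of allergic airway inflammation) and calls PD00 a peptidomimetic, a molecule built to mimic a peptide. The labels give neither a dose nor a time, do not say whether the PD00 mice received OVA or how many animals went into a library, and call the tissue healthy in all 3 libraries. With 1 library per treatment the spread between animals was not measured, so no comparison below was tested. Every interval is a 95% interval of counting error alone, exact Clopper-Pearson for shares and exact conditional binomial for ratios.

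Naive CD8 T cells circulate through lymph nodes, which they enter with the help of the chemokine receptor Ccr7. After they meet antigen they switch to a program of killing, secretion and tissue entry, with granzymes and perforin stored in granules, the chemokine Ccl5 and receptors such as Cxcr3 and Cxcr6. Some of these cells stay in the lung as resident memory cells.

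The identity of the cells was read from 7 T cell genes that the choice did not use, Trac, Trbc1, Trbc2, Lat, Themis, Cd28 and Lck. Their summed level was 2569, 2863 and 2466 CPM (UMIs of the cells named, summed and scaled to a total of 1000000) in PD00, Model and Control CD8 T cells, against 53.9, 86.3 and 58.6 CPM in the kept cells without a Cd3 UMI. Transcripts of other lineages were present as well. The 12 macrophage markers summed to 7843, 4360 and 2911 CPM in the PD00, Model and Control CD8 T cells, the 7 B cell markers to 1166, 1156 and 65.2 CPM and the 9 natural killer (NK) cell markers to 322, 240.1 and 430.5 CPM, with Klra8, Klra4 and Klra9 at 0 in all 3. The 6 neutrophil markers summed to 1219, 1189 and 1813 CPM, and the 5 endothelial markers to 33.4, 237.6 and 81.7 CPM. The 7 gamma-delta T cell markers had 1, 41 and 1 UMIs, with Trdc at 0 by the choice. At least 10 UMIs over 7 myeloid and antigen-presenting cell genes were found in 8 PD00, 17 Model and 24 Control CD8 T cells, and 5, 8 and 20 had a Scrublet doublet score above 0.2. Ribosomal protein genes took 23.9%, 20.6% and 32.9% of the UMIs. The part of these values in the results was not tested except where a value without those cells is given. The CD8 T cells held 658560, 1574105 and 1640016 UMIs in PD00, Model and Control, at medians of 5189, 5657 and 5367 UMIs per cell, of libraries of 80288883, 81816397 and 83281019 UMIs. No barcode was a CD8 T cell in more than 1 library.

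CD8 T cells made up 1.17% of the kept PD00 cells (0.966% to 1.41%), 2.07% of Model cells (1.82% to 2.35%) and 2.71% of Control cells (2.40% to 3.05%). The share was lowest in PD00, at 0.565 times the Model share (0.448 to 0.710), and the Model share was 0.765 times that of Control (0.640 to 0.915). The lower share in Model rests on how the cells were counted: with kept cells thinned to 2000 UMIs before the choice, the ratio of Model to Control was 1.04 (0.757 to 1.42), whereas that of PD00 to Model was 0.440 (0.285 to 0.664). Thinning left out the shallower cells, so that 7458 PD00, 8553 Model and 8448 Control cells remained. Among those same cells without thinning the ratios were 0.892 for Model to Control (0.745 to 1.07) and 0.549 for PD00 to Model (0.434 to 0.690). Among cells with at least 2 Cd3 UMIs the CD8 share was 4.29% in PD00, 7.24% in Model and 13.3% in Control. Those denominators moved with CD4 T cells, which were 1028 cells or 10.7% of kept PD00 cells, 1096 or 9.50% in Model and 413 or 4.22% in Control. Of CD8 and CD4 T cells together, CD8 T cells were 9.90% in PD00 (8.23% to 11.8%), 17.9% in Model (15.9% to 20.1%) and 39.1% in Control (35.4% to 42.9%). Cells near the limits were many: 50 PD00, 63 Model and 108 Control cells had exactly 2 Cd8 UMIs, and 59, 80 and 142 cells just outside had exactly 1.

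To describe the states of the cells at equal depth, each was thinned to 1500 UMIs, which left out 1 PD00, 1 Model and 2 Control cells. An effector set of 6 genes (Ccl5, Nkg7, Gzma, Gzmb, Gzmk and Cxcr6) and a homing set of 3 genes (Ccr7 and Lef1 among them) were summed per cell. Gzma, Gzmb and Gzmk encode granule proteases, Nkg7 a granule membrane protein, Ccl5 a chemokine and Cxcr6 a receptor for a chemokine made in the lung. Lef1 encodes a transcription factor of naive T cells.

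The 250 bases before the start sites of 5 effector-set genes are printed here from RefSeq (build GRCm38.p6), because they are the genes of that set found in the table. Ccl5, the most abundant gene of the set, and Ccr7 were not matched. The stretches are chr14:56262335-56262584 (minus strand) for Gzmb, chr13:113100982-113101231 (minus) for Gzma, chr13:113180966-113181215 (minus) for Gzmk, chr7:43436888-43437137 (plus) for Nkg7 and chr9:123806227-123806476 (plus) for Cxcr6. The GENCODE annotation places some starts elsewhere. Its starts of Nkg7 (chr7:43437073) and Cxcr6 (chr9:123806475) lie inside these windows, and its Gzmk gene (chr13:113171608-113225908) spans the whole Gzmk window. Upstream below refers to the RefSeq starts. Capitals mark matches on either strand to letters that RUNX factors (TGTGGT, read as ACCACA on the other strand), T-box factors (AGGTGT or ACACCT) and TCF/LEF factors (CTTTGA or TCAAAG) are known to bind.
Gzmb: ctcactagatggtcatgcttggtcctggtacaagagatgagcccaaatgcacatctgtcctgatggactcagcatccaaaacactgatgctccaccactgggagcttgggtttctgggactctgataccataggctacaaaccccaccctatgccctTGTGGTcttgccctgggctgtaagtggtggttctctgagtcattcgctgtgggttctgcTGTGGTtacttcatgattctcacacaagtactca
Gzma: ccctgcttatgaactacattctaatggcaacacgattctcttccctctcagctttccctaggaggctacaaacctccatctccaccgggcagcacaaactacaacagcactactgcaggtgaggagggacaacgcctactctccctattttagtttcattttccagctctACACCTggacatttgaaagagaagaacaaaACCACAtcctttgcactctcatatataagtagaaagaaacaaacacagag
Gzmk: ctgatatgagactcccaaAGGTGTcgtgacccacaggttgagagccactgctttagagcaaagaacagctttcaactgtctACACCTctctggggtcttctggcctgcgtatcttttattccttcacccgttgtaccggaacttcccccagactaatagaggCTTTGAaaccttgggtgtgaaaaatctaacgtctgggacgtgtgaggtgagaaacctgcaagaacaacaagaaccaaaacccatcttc
Nkg7: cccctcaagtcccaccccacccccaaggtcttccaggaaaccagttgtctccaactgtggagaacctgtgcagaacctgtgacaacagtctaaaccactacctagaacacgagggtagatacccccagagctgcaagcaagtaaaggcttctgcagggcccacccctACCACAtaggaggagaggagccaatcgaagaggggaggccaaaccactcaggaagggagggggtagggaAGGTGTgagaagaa
Cxcr6: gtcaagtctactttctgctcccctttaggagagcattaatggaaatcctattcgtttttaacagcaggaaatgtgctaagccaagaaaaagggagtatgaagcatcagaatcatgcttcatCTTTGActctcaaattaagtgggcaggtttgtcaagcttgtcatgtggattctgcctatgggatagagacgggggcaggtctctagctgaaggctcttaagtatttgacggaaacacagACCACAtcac
RUNX3 and the T-box factors T-bet and Eomes are known regulators of the CD8 effector program. The RUNX letters were found upstream of 4 of the 5 genes (Gzmb, Gzma, Nkg7 and Cxcr6), against 14.2% of all 27025 promoters of this length, and the T-box letters upstream of Gzma, Gzmk and Nkg7, against 12%. The TCF/LEF letters were upstream of Gzmk and Cxcr6, against 14.0% of all promoters, and the Lef1 window held none of the 3 motifs. These are matches of letters, not sites shown to be bound.

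Cells with effector-set and no homing-set UMIs were 32.1% of PD00 CD8 T cells (36 of 112, 23.6% to 41.6%), 52.9% in Model (126 of 238, 46.4% to 59.4%) and 13.7% in Control (36 of 263, 9.78% to 18.4%). Cells with homing-set UMIs alone ran the other way, at 42.0% in PD00 (32.7% to 51.7%), 20.6% in Model (15.6% to 26.3%) and 56.7% in Control (50.4% to 62.7%). The Model and Control intervals do not overlap in either state, and PD00 lay between them in both. Cells with UMIs of both sets took close shares, 19.6%, 20.6% and 20.9% in PD00, Model and Control. A median PD00 cell had 1 effector-set UMI, a median Model cell 8 and a median Control cell 0, and 27.7%, 45.4% and 12.2% of the cells had at least 10. Effector-rich cells were thus present in every library, including Control, where the highest cell had 123 effector-set UMIs, against 49 in PD00 and 83 in Model.

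**Figure D1:**
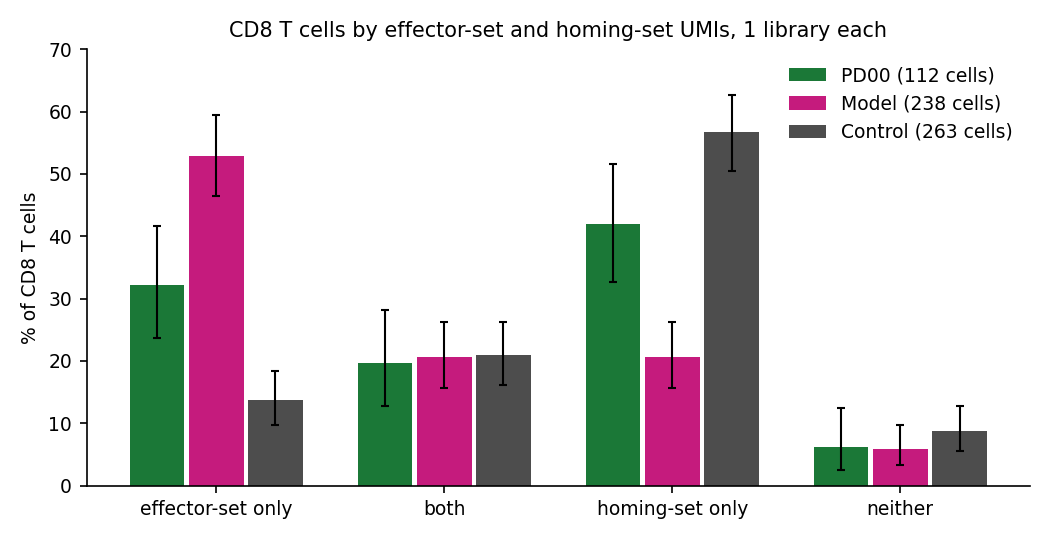
Shares of CD8 T cells (in %, 1 library each) by whether a cell thinned to 1500 UMIs held effector-set UMIs, homing-set UMIs, both or neither; error bars are exact 95% binomial intervals of counting error. Effector-set only cells are 32.1% in PD00, 52.9% in Model and 13.7% in Control, and homing-set only cells 42.0%, 20.6% and 56.7%.

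B cells were used as a background for these shares. Whether their effector-set UMIs came from free RNA or from doublets was not tested. At the same depth, 1.35% of PD00, 3.82% of Model and 5.32% of Control B cells, which should lack the effector genes, had an effector-set UMI, at median depths before thinning of 7331, 5664 and 3254 UMIs. Any effector-set UMI was found in 51.8%, 73.5% and 34.6% of PD00, Model and Control CD8 T cells (without thinning, 69.9%, 86.6% and 62.6%). With at least 2 UMIs required, the shares were 41.1%, 62.6% and 17.5%, against 0%, 0.669% and 0.453% of B cells (for 0 of 888 PD00 B cells, a limit of 3 counts allows up to 0.338%). Of the homing set, Lef1 had a UMI in 32.1%, 25.2% and 42.6% of PD00, Model and Control CD8 T cells, against 0.450%, 0.286% and 1.47% of B cells. Ccr7, which B cells also express, had one in 38.4%, 25.2% and 54.0% of CD8 T cells and in 16.7%, 21.0% and 31.0% of B cells. Without the cells with other-lineage UMIs, effector-set only cells were 31.7%, 50.7% and 14.2% in PD00, Model and Control.

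**Figure D2:**
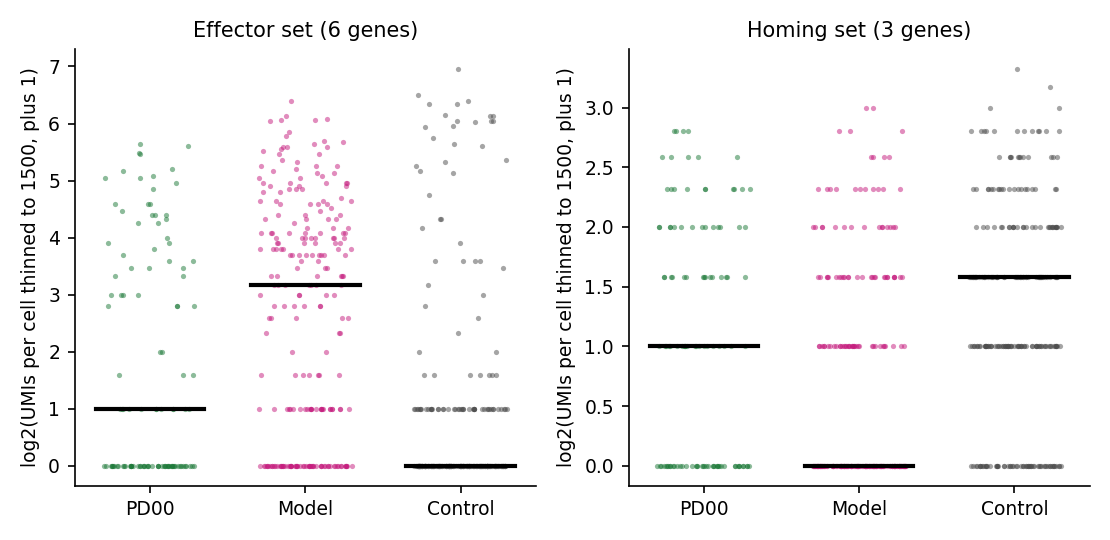
Each point is a CD8 T cell thinned to 1500 UMIs, at log2 of its summed UMIs plus 1 for the effector set (left, 6 genes) and the homing set (right, 3 genes); bars are medians, and sideways spread has no meaning. Effector-set medians are 1 UMI in PD00, 8 in Model and 0 in Control, and all 3 libraries hold cells with over 10.

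Summed over CD8 T cells, 374 of 5815 measured genes (at least 50 UMIs over both sums) were at least 2-fold higher in Model than in Control, 6.43% of those measured, and 241 genes or 4.14% were at least 2-fold lower. Genes of granules, chemokine receptors and division were on the higher side and genes of naive cells on the lower side. The median log2 ratio of all measured genes was 0.13. Scaling without mitochondrial, ribosomal protein and haemoglobin genes put that median at -0.13 and turned the split to 204 higher and 420 lower, median-of-ratios scaling made it 275 and 317, and without the other-lineage cells it was 411 and 118. Directions of the genes named below held under the first and last of these settings where the gene was measured, except for Trac, Cd44 and Zeb2. Under the first of them Prf1, Ly6c2, Zap70, Cd6, Tox and Gata3 were less than 2-fold higher. Genes called higher or lower below are past 2-fold where no other limit is given.

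Naive and lymph node homing genes had a median log2 ratio of -0.67 in Model over Control, with all 16 list members measured, 4 at least 2-fold lower, against 4.14% of all measured genes, and 0 higher. Without the cells with cell cycle UMIs 1 of 16 was lower. Klf2, a transcription factor that drives S1pr1 in naive cells, had 688 CPM in PD00, 372 in Model and 1138 in Control CD8 T cells. It was 3.06-fold lower in Model than in Control (ratio 0.327, 0.298 to 0.359) and 1.85-fold higher in PD00 than in Model (1.63 to 2.09). The lower Klf2 level in Model than in Control was not particular to CD8 T cells. At equal depth Klf2 had a UMI in 50%, 31.1% and 82.1% of PD00, Model and Control CD8 T cells, and in 34.1%, 35.5% and 71.0% of B cells. Ccr7 had 512, 280.2 and 577 CPM in PD00, Model and Control, a 2.06-fold lower level in Model than in Control. Klf2 lies at chr8:72319033-72321656, Ccr7 at chr11:99144196-99155077 and Il7r at chr15:9505788-9530176 (GRCm38). Il7r, the receptor chain through which interleukin 7 keeps naive and memory cells alive, had 545, 226 and 476 CPM and was 2.11-fold lower in Model. For Klf2, Ccr7 and Il7r the Model level was thus the lowest of the 3. Igfbp4 had 51.6, 37.5 and 93.9 CPM and was 2.51-fold lower in Model than in Control. S1pr1, which encodes the receptor for leaving lymph nodes and tissue, had 243, 125 and 223 CPM and was 1.78-fold lower in Model, inside the 2-fold limit. Tcf7, a regulator of naive and memory cells, was nearer to even, with 301, 175 and 197 CPM and a ratio of 0.890 (0.755 to 1.05). With the cells with cell cycle UMIs left out, Ccr7, Il7r, Igfbp4, Bcl2 and Dusp10 were lower in Model by less than 2-fold.

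Among the 10 genes lowest in Model by the bound of their interval were also Cd55, Tdrp, Dusp10, Mrps10, Bcl2 and Ubb. Bcl2, which protects cells from death and is sustained by interleukin 7, had 284 CPM in PD00, 146 in Model and 302 in Control, 2.08-fold lower in Model than in Control. Cd55, a surface shield against complement, was 2.59-fold lower, Tdrp 2.95-fold, Mrps10, of the mitochondrial ribosome, 3.11-fold, and Dusp10, a phosphatase of stress kinases, 2.09-fold. The ubiquitin gene Ubb was 1.83-fold lower, beside the lower share of ribosomal protein UMIs in Model.

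Cytotoxic granule and killing genes had a median log2 ratio of 1.49 in Model over Control (1.27 without other-lineage cells), with 8 of 11 measured members (of 15) at least 2-fold higher and 0 lower, against 6.43% of all measured genes. Gzmb, the granule protease that triggers death of the target cell, had 74.4 CPM in PD00 (49 UMIs in 16 cells), 265 in Model (417 UMIs in 76 cells) and 50 in Control (82 UMIs in 24 cells). Model was 5.30-fold above Control (4.17 to 6.80). Gzmk, a granzyme of memory-type CD8 T cells, had 68.3, 105 and 14.0 CPM in PD00, Model and Control and was 7.47-fold higher in Model (4.81 to 12.1). Nkg7 had 351, 752 and 267 CPM, a 2.81-fold higher level in Model (2.52 to 3.15). Perforin (Prf1), which opens the target membrane, had 65.3, 88.9 and 42.7 CPM and was 2.08-fold higher in Model, and Fasl, the death ligand, 3.31-fold. Serpinb9, the inhibitor that shields killer cells from their own Gzmb, was 4.48-fold higher. Gzma was the exception in size, with 270.3, 969 and 655 CPM and a ratio of 1.48 (1.37 to 1.60). Its UMIs lay in few cells, 18 in PD00, 70 in Model and 19 in Control, of which the highest cell held 28.7%, 12.1% and 26.5%.

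**Figure D3:**
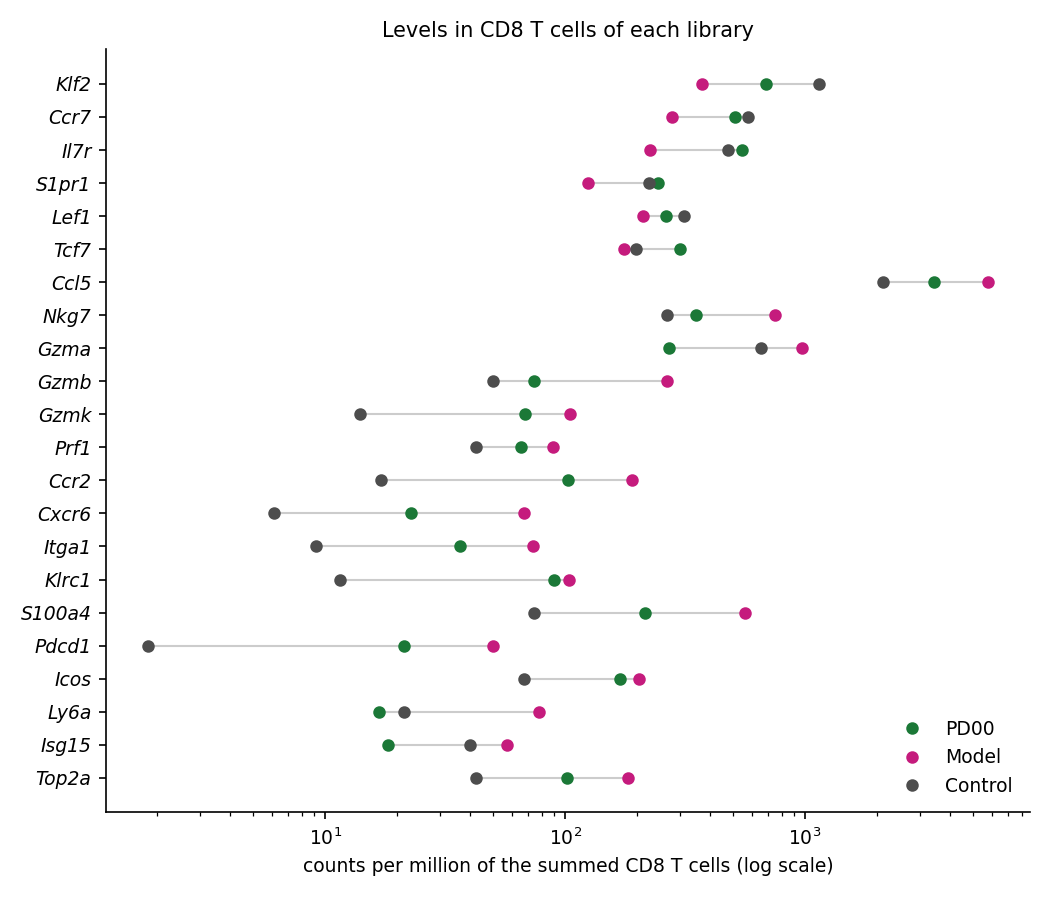
Levels of 22 genes in the summed CD8 T cells of each library, in CPM on a log axis, 1 point per library. Klf2, Ccr7, Il7r and S1pr1 are lowest in Model, and Gzmb (74.4, 265 and 50 CPM in PD00, Model and Control), Ccr2, Cxcr6 and S100a4 are highest there.

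Of the effector cytokine and chemokine genes, 6 of 13 were measured, with a median log2 ratio of 0.46 in Model over Control, 1 higher and 2 lower (6.43% and 4.14% of all measured genes). Ccl5, which draws T cells and monocytes, was the most abundant effector transcript, at 3450 CPM in PD00, 5769 in Model and 2110 in Control (ratio of Model to Control 2.73, 2.63 to 2.84). Ifng, the type 1 cytokine of CD8 T cells, had 19.7, 50.2 and 35.4 CPM in PD00, Model and Control, and its Model to Control interval reached from 0.998 to 2.03. Tnf and Ccl3 were 15.9-fold and 4.17-fold lower in Model than in Control, but those UMIs moved with the cells that held other-lineage UMIs. Tnf had 4 UMIs in PD00, 11 in Model and 182 in Control, and 1, 11 and 17 without those cells. Ccl3 had 40, 44 and 191 UMIs, and 5, 32 and 37 without them.

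Chemokine receptors and trafficking genes had 7 of 18 measured members higher (6.43% of all measured genes), 1 lower (4.14%) and a median log2 ratio of 0.70 in Model over Control. Ccr2, the receptor for monocyte chemokines that effector T cells also use, had 103 CPM in PD00, 190.0 in Model and 17.1 in Control CD8 T cells, an 11.1-fold higher level in Model (7.54 to 17.0). Cxcr6 had 22.8, 67.3 and 6.10 CPM and was 11-fold higher (5.78 to 23.7), and Cxcr3, the receptor for interferon-induced chemokines, 3.84-fold (2.29 to 6.75).

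Effector and memory regulators and surface genes had 10 of 22 measured members (of 27) at least 2-fold higher in Model than in Control, against 6.43% of all measured genes, 0 lower and a median log2 ratio of 0.74. Klrc1 and Klrc2, which encode NKG2 chains paired with CD94, had 89.6 and 38.0 CPM in PD00, 104 and 95.9 in Model and 11.6 and 14.6 in Control. Model was 8.94-fold above Control for Klrc1 (5.54 to 15.2) and 6.56-fold for Klrc2 (4.24 to 10.5). Klrd1, the gene of CD94 itself, was inside the 2-fold limit, with 72, 151 and 124 UMIs in PD00, Model and Control. So were Id2, with 150, 306 and 305 UMIs, and Prdm1, with 19, 55 and 76. S100a4, a calcium-binding protein of antigen-experienced T cells, had 216, 560.3 and 74.4 CPM in PD00, Model and Control and was 7.53-fold higher in Model (6.23 to 9.18). S100a6 was 3.93-fold higher, Lgals1 (galectin-1) 2.70-fold, Ly6c2, a surface protein of memory CD8 T cells, 2.08-fold (1.88-fold without other-lineage cells), and the T-box factor Eomes 3.79-fold (2.70 to 5.42). Ly6c2 was also found in more Model than Control B cells. At equal depth it had a UMI in 13.4%, 23.5% and 9.51% of PD00, Model and Control CD8 T cells, and in 19.0%, 19.5% and 2.04% of B cells. Plac8, outside the list and among the 10 highest genes, was 5.87-fold higher, and Uhrf1, which maintains DNA methylation during replication, 12.3-fold on 13 UMIs in PD00, 59 in Model and 5 in Control. Cd44 and Zeb2 were 1.97-fold and 1.95-fold lower in Model. Without the cells that held other-lineage UMIs they were 1.27 times and 1.70 times the Control level, so their direction turned.

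Tissue residency genes were thinly measured, 7 of 15, with 3 higher against the same 6.43%, 0 lower and a median log2 ratio of 0.91. Itga1, the integrin chain with which resident T cells hold to collagen, had 36.4 CPM in PD00, 73.7 in Model and 9.15 in Control, 8.06-fold higher in Model (4.69 to 14.9). Rgs1, a brake on chemokine receptor signalling, was 2.5-fold higher. Cd69, which keeps cells in tissue by blocking S1pr1 and also follows activation, had 404, 233 and 311 CPM in PD00, Model and Control, a ratio of 0.750 (0.654 to 0.859) that went against the other named members. The integrin gene Itgae was near even between Model and Control, with 5, 27 and 25 UMIs in PD00, Model and Control. Rgs2, with 209, 546 and 302 UMIs, and Litaf, with 54, 108 and 85, were also inside the 2-fold limit.

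Checkpoint and costimulation genes had 4 of 7 measured members (of 16) higher, against 6.43%, and 0 lower, with a median of 1.20. Pdcd1, which encodes the inhibitory receptor PD-1, had 14 UMIs in PD00, 79 in Model and 3 in Control, or 21.3, 50.2 and 1.83 CPM, and a Model to Control ratio of 27.4 with a wide interval (9.05 to 136). Its UMIs were in 11 PD00, 37 Model and 2 Control cells. Icos, a costimulator, had 170.1, 203 and 67.7 CPM and was 3.00-fold higher in Model (2.41 to 3.76), the inhibitor Ctla4 2.71-fold and Tox, a regulator of chronically stimulated T cells, 2.30-fold (1.56 to 3.45). The other measured members were inside the 2-fold limit. Tnfrsf18, lower in Model than in Control, had 17, 61 and 110 UMIs in PD00, Model and Control, Cd226 14, 60 and 50, and Havcr2 6, 31 and 30.

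Type 2 genes were mostly not measurable in CD8 T cells, with 4 of 17 members reaching 50 UMIs. Il4 had 0, 3 and 0 UMIs, Il13 1, 1 and 0 and Il5 0, 0 and 0 in PD00, Model and Control. Of the measured genes, the transcription factor Maf had 65.3, 66.7 and 15.9 CPM, 4.21-fold higher in Model than in Control (2.72 to 6.74), and Gata3, which directs type 2 helper cells and is also needed by CD8 T cells, had 63.8, 43.8 and 18.9 CPM, 2.32-fold higher (1.5 to 3.67). The other measured members were inside the 2-fold limit: Il4ra, with 186, 264 and 295 UMIs in PD00, Model and Control, and Nfil3, with 37, 84 and 47.

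Cell cycle genes had 14 of 20 measured members (of 22) at least 2-fold higher in Model than in Control, against 6.43% of all measured genes, 0 lower and a median log2 ratio of 1.49. Top2a, the topoisomerase of dividing cells, had 102 CPM in PD00, 184 in Model and 42.7 in Control, 4.30-fold higher in Model (3.30 to 5.67), and Pclaf, a partner of PCNA, was 4.29-fold higher (3.15 to 5.95). Cells with at least 2 UMIs over 9 cell cycle genes were 11 of 113 in PD00, 43 of 239 in Model and 13 of 265 in Control, or 9.73%, 18% and 4.91%, and 36 of the 43 Model cells were effector-set only. At equal depth the shares were 4.46%, 8.82% and 1.90%, with intervals of 1.47% to 10.1%, 5.55% to 13.2% and 0.620% to 4.38%, beside 5.63%, 4.87% and 1.70% of B cells. With these cells left out, the cell cycle list's median was 0.060, while that of cytotoxic genes was 1.46 and that of interferon genes 0.87.

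Interferon response genes had a median log2 ratio of 0.66 in Model over Control, with 6 of 28 measured members (of 37) higher, against 6.43% of all measured genes, and 0 lower. Without the other-lineage cells 2 of 24 were higher, close to the 8.28% of all genes measured in those sums. Gbp7, a guanylate-binding protein of cell-intrinsic defence, had 63.8, 102 and 39.0 CPM in PD00, Model and Control and was 2.62-fold higher in Model (1.95 to 3.56). Rtp4 was 4.48-fold higher on 3, 43 and 10 UMIs. Ly6a (Sca-1) was 3.66-fold higher on 11 UMIs in PD00, 123 in Model and 35 in Control, but 35.0% of the Model UMIs came from 1 cell, and without other-lineage cells it was 2.41-fold higher. Isg15, a ubiquitin-like protein, had 18.2, 57.2 and 40.2 CPM, a ratio of 1.42 (1.02 to 1.98).

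Genes of receptor signalling and of the immediate-early response, which can also follow tissue dissociation, were less uniform. Immediate-early genes had a median of -0.32 with 1 of 22 lower, near the 4.14% of all measured genes, and 0 higher. Fos had 329.5 CPM in PD00, 194 in Model and 516 in Control, 2.67-fold lower in Model (ratio 0.375, 0.328 to 0.428), while Zfp36l2 was 1.85 times the Control level. T cell receptor response genes had a median of 0.10 with 2 of 16 lower (4.14% of all measured genes) and 0 higher. Egr2 was 6.0-fold lower on 23, 8 and 50 UMIs in PD00, Model and Control (13, 7 and 16 without other-lineage cells). Nfkbia, the inhibitor of NF-kappaB, was 2.02-fold lower, and 1.76-fold without those cells. Cytokine receptors split, with 1 of 17 higher (6.43% of all measured genes) and 4 lower (4.14%). Il18rap, a chain of the interleukin 18 receptor, was 3.50-fold higher in Model (2.22 to 5.71), and Tgfbr1, Il6ra and Ifngr2 were 3.13-fold, 2.45-fold and 2.20-fold lower. Without other-lineage cells Tgfbr1 had 8, 12 and 24 UMIs and Il6ra was 1.95-fold lower in Model. With the cells with cell cycle UMIs left out, 1 of 17 cytokine receptors was lower, and Nfkbia, Il6ra and Ifngr2 were lower by 1.76-fold, 1.96-fold and 1.89-fold. Among the 15 T cell identity genes, the surface receptor Cd6 was 2.20-fold and the kinase Zap70 2.08-fold higher in Model (1.79-fold without other-lineage cells), and Trbc2 was even, with 703, 976 and 987 CPM in PD00, Model and Control.

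**Figure D4:**
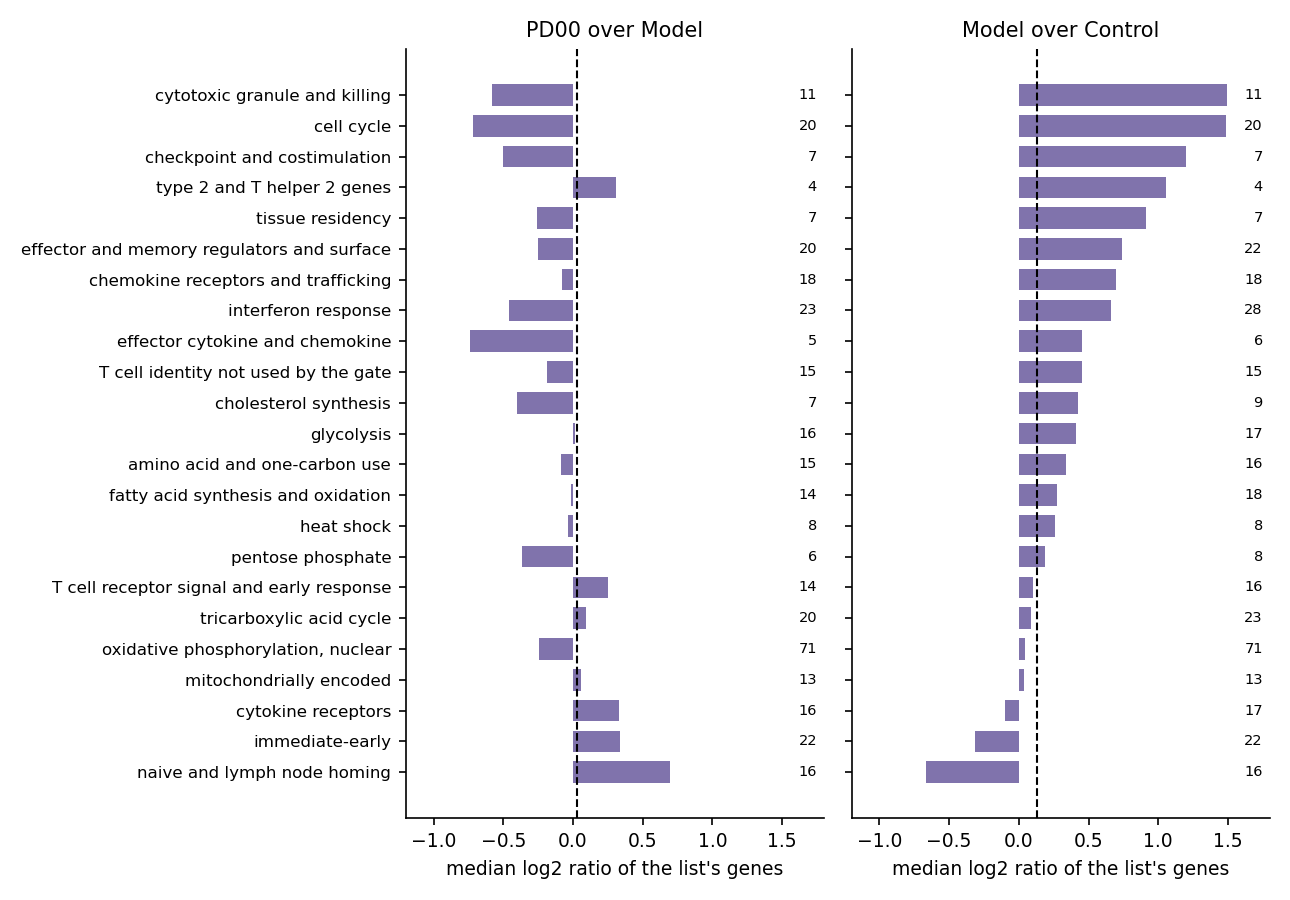
Median log2 ratio of the measured members of 23 gene lists in summed CD8 T cells, PD00 over Model (left) and Model over Control (right); the number at the right of each row is how many members were measured, and the dashed line is the median of all measured genes (0.03 and 0.13). Cytotoxic and cell cycle genes stand highest in Model over Control (1.49 each) and below the line in PD00 over Model, and naive and lymph node homing genes stand lowest and highest.

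In PD00 over Model, 82 of 4839 measured genes were at least 2-fold higher, 1.69%, and 136 or 2.81% at least 2-fold lower, with a median log2 ratio of 0.03. Scaled without mitochondrial, ribosomal protein and haemoglobin genes they were 114 and 110, and without other-lineage cells 48 and 102. The PD00 sum was the smallest, so fewer genes reached 50 UMIs than in Model over Control. Both comparisons use the Model library, so a gene measured high in Model tends to appear in both with opposite signs, and the levels of the 3 libraries are therefore given side by side.

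Naive and lymph node homing genes had a median log2 ratio of 0.70 in PD00 over Model, with 1 of 16 at least 2-fold higher, against 1.69% of all measured genes, and 0 lower. That gene was Il7r, 2.41-fold higher in PD00 (2.08 to 2.80) and close to the Control level (PD00 to Control ratio 1.14, 1.01 to 1.30). S1pr1 was 1.94-fold higher in PD00 than in Model, Ccr7 1.83-fold (1.58 to 2.11), Tcf7 1.71-fold (1.42 to 2.07) and Lef1 1.25-fold (1.04 to 1.51). Bcl2 was 1.95-fold higher (1.60 to 2.38). Klf2 in PD00 was still 1.66-fold below Control (ratio 0.604, 0.544 to 0.670), whereas Tcf7 was 1.53 times the Control level (1.27 to 1.83).

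The other genes among the 10 highest in PD00 over Model were Scml4, Rttn, Acod1, Plcxd2, Tmem65 and Esf1. Scml4, a Polycomb-family protein, had 66.8 CPM in PD00, 19.7 in Model and 40.9 in Control, 3.39-fold higher in PD00 than in Model (2.09 to 5.56). Plcxd2 was 2.26-fold higher, Esf1, a nucleolar protein, 2.31-fold, Tmem65 2.91-fold on 28 and 23 UMIs and Rttn 3.33-fold on 32 and 23 UMIs. Acod1, the enzyme that makes itaconate in activated myeloid cells, was 2.60-fold higher, on 75 UMIs in 5 PD00 cells, 69 in 12 Model cells and 122 in 20 Control cells. Without the cells that held other-lineage UMIs, 1, 9 and 12 Acod1 UMIs were left, and without those with cell cycle UMIs it was 1.53-fold higher in PD00.

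Cytotoxic granule and killing genes had a median of -0.58 in PD00 over Model, with 3 of 11 measured members lower, against 2.81% of all measured genes, and 0 higher. Gzma was 3.59-fold lower in PD00 (ratio 0.279, 0.237 to 0.326), Gzmb 3.56-fold (ratio 0.281, 0.204 to 0.378) and Nkg7 2.14-fold (ratio 0.467, 0.404 to 0.538; 1.99-fold without other-lineage cells and also under 2-fold without the cells with cell cycle UMIs). Gzmk (ratio 0.652, 0.458 to 0.911), Prf1 (0.734, 0.509 to 1.04), Fasl (0.645, 0.393 to 1.02) and Serpinb9 (0.775, 0.569 to 1.04) were inside the 2-fold limit. Against Control the granzymes parted. PD00 had 4.87 times the Control level of Gzmk (2.89 to 8.44) and 1.49 times that of Gzmb (1.02 to 2.15), but 0.413 times that of Gzma (0.35 to 0.484). Ccl5 was 1.67-fold lower in PD00 than in Model (ratio 0.598, 0.571 to 0.626), Ifng 2.54-fold lower on 13 and 79 UMIs, and Ccl4 had 207, 268 and 202 CPM in PD00, Model and Control.

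Of the effector and memory list, 5 of 20 measured members were at least 2-fold lower in PD00 than in Model, against 2.81% of all measured genes, and 0 higher. They were Lgals1 (241 CPM in PD00, 848 in Model and 314 in Control), Ly6c2 (83.5, 229 and 110.0 CPM), S100a4, Klrc2 and S100a6, at 3.51-fold, 2.74-fold, 2.60-fold, 2.53-fold and 2.15-fold. Klrc1 was not among them, with a ratio of 0.865 (0.631 to 1.17), and neither was Eomes (0.717, 0.508 to 0.996). Plac8 and AW112010, among the 10 lowest genes, were 3.1-fold and 2.54-fold lower. Cxcr6 was 2.96-fold lower (ratio 0.338, 0.183 to 0.583) and Itga1 2.02-fold (1.78-fold without other-lineage cells), whereas Ccr2 was 1.84-fold lower and was 6.05 times the Control level. Pdcd1 was 2.36-fold lower on 14 and 79 UMIs (ratio 0.424, 0.222 to 0.753), and Icos (0.837, 0.668 to 1.04) and Tox (1.0, 0.658 to 1.49) were near the Model level. Maf (0.979, 0.670 to 1.41) and Gata3 (1.45, 0.967 to 2.17) were close to or above the Model level.

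Interferon response genes had 8 of 23 measured members at least 2-fold lower in PD00 than in Model, against 2.81% of all measured genes, 0 higher and a median of -0.46. Without other-lineage cells 7 of 22 were lower, against 2.40% of all genes. Ifi27l2a had 191 CPM in PD00, 499.97 in Model and 392 in Control, 2.61-fold lower in PD00 than in Model (ratio 0.383, 0.315 to 0.462) and 2.05-fold lower than in Control. Isg15 had 12, 90 and 66 UMIs in PD00, Model and Control, 3.14-fold lower in PD00 than in Model, and 2, 59 and 39 UMIs without other-lineage cells. Irf7, the regulator that amplifies type I interferon, had 10, 70 and 47 UMIs and was 2.93-fold lower. Zbp1, a sensor of nucleic acids, was 2.37-fold and Ifi47 2.14-fold lower. For Isg15, Irf7 and Ifi27l2a the PD00 level was the lowest of the 3. The list as a whole was near even between PD00 and Control. Its median log2 ratio in PD00 over Control was -0.015, beside 0.12 over all measured genes. In that comparison 3 of 19 measured members were at least 2-fold lower and 0 higher, against 162 lower of all 4728 measured genes. Cell cycle genes had 5 of 20 lower (2.81% of all measured genes) and 0 higher, with Ube2c 5.49-fold lower on 8 and 105 UMIs and Birc5 2.95-fold lower on 17 and 120; the histone gene Hist1h1b was 3.16-fold lower. Without the cells with cell cycle UMIs the cell cycle median was 0.064 and the interferon median -0.40. Immediate-early genes had a median of 0.34 with 0 of 22 past 2-fold in either direction, Dusp1 being 1.79 times the Model level.

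Within the states, sums over effector-set only cells and over homing-set only cells were compared with each other and across libraries. The set genes define the states, so their values there are a description. Set genes are also in lists: Gzma, Gzmb, Gzmk and Nkg7 in the cytotoxic, Ccl5 in the effector cytokine, Cxcr6 in the residency, and Ccr7 and Lef1 in the naive and homing list. Medians of these lists within the states thus depend in part on the choice of the cells. S100a4 had 531 CPM in PD00, 831 in Model and 314 in Control effector-set only cells, and 3.67, 6.88 and 9.39 CPM in homing-set only cells. Ccr2 had 257, 268 and 62.9 CPM in effector-set only cells against 14.7, 3.44 and 5.87 CPM, and Pdcd1 9, 68 and 3 UMIs against 1, 0 and 0. Klf2 had 338, 224 and 800 CPM in effector-set only cells and 980.1, 736 and 1351 CPM in homing-set only cells. Effector-set only cells were 36 in PD00, 126 in Model and 36 in Control, so these sums are smaller than those above. They had medians of 5039, 5742 and 4111 UMIs per cell, ribosomal protein shares of 18.2%, 16.7% and 24.5%, and median Cd8 UMIs of 6, 5.5 and 3.

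Among effector-set only cells, the cytotoxic list's median was 0.027 in Model over Control, against 1.49 over all CD8 T cells, and the cell cycle list's 0.20 against 1.49. In these cells Gzmb had 194, 368 and 319 CPM in PD00, Model and Control (ratio of Model to Control 1.15, 0.891 to 1.51). Gzma turned to 3.07-fold lower in Model, with 698, 1389 and 4258 CPM, and Ccl5 to 1.40-fold lower, with 7585, 8725 and 12230 CPM. Checkpoint genes kept a median of 0.80, with Pdcd1 at 5.74 times the Control level (1.88 to 28.5), tissue residency genes 0.72 and naive and homing genes -0.84. Ccr2 was 4.27-fold (2.49 to 7.92) and S100a4 2.64-fold (2.07 to 3.43) higher in Model in these cells. In PD00 over Model, interferon genes had a median of -0.78 among effector-set only cells, the lowest of the lists measured there, and cytotoxic genes -0.23. Il7r had 387 CPM in PD00, 90.9 in Model and 247 in Control effector-set only cells, 4.26-fold higher in PD00 than in Model (3.1 to 5.85). Among homing-set only cells, naive and homing genes had medians of 0.20 in Model over Control and 0.17 in PD00 over Model, and Klf2 was lower in Model there too (ratio 0.545, 0.469 to 0.631).

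**Figure D5:**
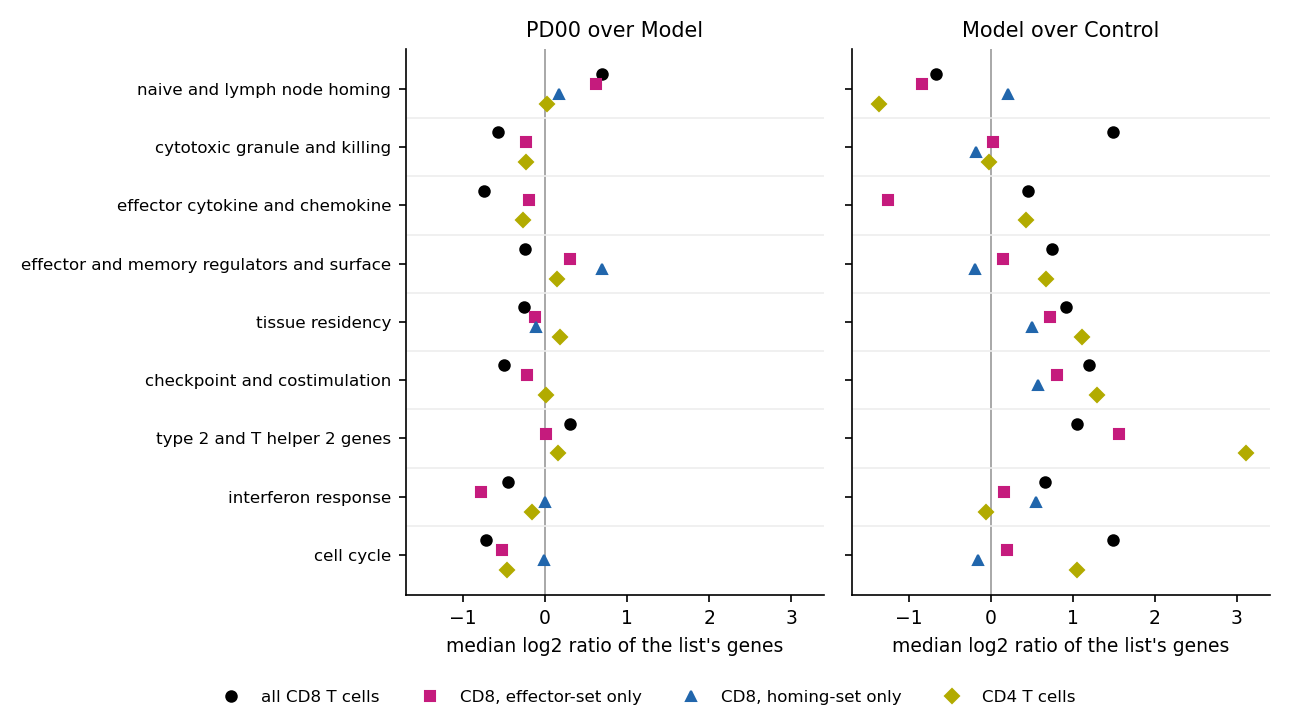
Median log2 ratio of 9 lists, PD00 over Model (left) and Model over Control (right), in all CD8 T cells, in CD8 T cells with only effector-set or only homing-set UMIs and in CD4 T cells; lists with fewer than 3 measured members are left out. The cytotoxic median in Model over Control is 1.49 over all CD8 T cells but 0.027 among effector-set only cells. Effector-set genes belong to that list, so its median within the state depends in part on the choice of the cells. The type 2 median is 3.11 in CD4 T cells (14 genes measured) against 1.05 in CD8 T cells (4 genes measured).

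CD4 T cells of the same libraries were set beside the CD8 T cells. Naive and homing genes were lower in Model than in Control in CD4 T cells as well (median -1.37, against -0.67 in CD8 T cells), with Klf2 at 278, 244 and 947 CPM in PD00, Model and Control CD4 T cells. Checkpoint (1.29 against 1.20), residency (1.11 against 0.91) and cell cycle medians (1.05 against 1.49) were also positive in both. The cytotoxic median was -0.027 in CD4 and 1.49 in CD8 T cells, the interferon median -0.054 and 0.66, and the type 2 median 3.11 and 1.05. Each median covers the genes measured in that cell type. For type 2 genes these were 14 of 17 in CD4 but 4 in CD8 T cells, so those medians do not compare the same genes. In PD00 over Model, naive and homing genes had a median of 0.022 in CD4 T cells against 0.70 in CD8 T cells, and interferon genes -0.16 against -0.46. Ifi27l2a had 265, 577 and 558 CPM in PD00, Model and Control CD4 T cells, 2.18-fold lower in PD00 than in Model. Whether the 2 cell types differ was not tested, since each has 1 library per treatment. NK cells, 24 in PD00, 71 in Model and 169 in Control, were used only for Model over Control, where the cytotoxic median was -0.14 and the interferon median 0.44.

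Metabolism is an aspect the series' title names. Most measured members of the metabolic lists were inside the 2-fold limit. In Model over Control, glycolysis genes had a median of 0.41 with 0 of 17 past 2-fold in either direction, tricarboxylic acid cycle genes 0.090 with 0 of 23, nuclear oxidative phosphorylation genes 0.047 with 0 of 71 and mitochondrially encoded genes 0.040 with 0 of 13, beside 0.13 over all measured genes. The glucose transporter Slc2a3 was 1.85 times the Control level (1.13 to 3.09). Amino acid and one-carbon genes had 1 of 16 higher (median 0.34) and fatty acid genes 1 of 18 (median 0.28), near the 6.43% of all measured genes. Cholesterol synthesis genes had a median of 0.43 with 1 of 9 in each direction (6.43% and 4.14% of all measured genes). In PD00 over Model, nuclear oxidative phosphorylation genes had a median of -0.24 with 0 of 71 past 2-fold and pentose phosphate genes -0.37 with 0 of 6. Cholesterol synthesis genes had a median of -0.40 with 0 of 7 past 2-fold. Fatty acid genes had a median of -0.017 with 2 of 14 lower, against 2.81% of all measured genes, and 0 higher. Of these genes, 1 of 11 was lower without other-lineage cells and 2 of 12 without the cells with cell cycle UMIs. Glycolysis genes had a median of 0.012 with 1 of 16 higher, against 1.69% of all measured genes. That gene was Slc16a3, a lactate exporter, at 50.1, 13.3 and 23.2 CPM in PD00, Model and Control, whose 33, 21 and 38 UMIs were 8, 8 and 7 without other-lineage cells. The glycolytic enzyme gene Gapdh had 475, 835 and 571 CPM and a ratio of 0.569 in PD00 over Model (0.501 to 0.644).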

How the data were processed

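The authors deposited counts of UMIs per gene and barcode for 3 libraries, as whole numbers that were not normalised. The submitters' processing notes name Cell Ranger 3.1.0 and STAR with mm10, but cellranger 5.0.0 is the version per the file headers. The matrices list 32285 genes and hold called barcodes only, so free RNA was left uncorrected. A cell was kept when it had 500 or more UMIs and 200 or more genes, with mitochondrial genes taking no more than 20% of its UMIs. UMIs of the CD8 T cells were added up per library and scaled to CPM. A gene was measured when the sums of the 2 libraries compared held 50 or more of its UMIs together, and a sum of 0 was replaced by 3 UMIs per library. Doublets were scored with Scrublet in scanpy 1.11.5 and left in, except in an alternative, since its own threshold called 3 PD00, 0 Model and 421 Control cells. Cells were not used as replicates and no p-value was computed. CD4 T cells needed 2 Cd3 UMIs, a Cd4 UMI and no Cd8a, Cd8b1, Foxp3 or Trdc UMI, NK cells no Cd3 UMI and 2 over Ncr1, Klrb1c and Klra8 (both at most 1 Cd79a UMI), and B cells no Cd3 UMI and 2 of Cd79a.

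The members and the 23 gene lists were chosen with earlier results of these data known. Named genes were the 10 highest and 10 lowest of each comparison, ranked by whichever end of the interval lay closer to 1, members of the T cell state and interferon lists, and 2 to 4 members with the largest ratios of other lists. Values of some genes are not reported here. The ranking passed over mitochondrial, ribosomal, haemoglobin, sex-linked, receptor-segment and unnamed genes, the genes of the choice and genes higher in cells without Cd3. Alternatives changed the choice of cells, filters, thinning, scaling and minimum, and 5 were added after the data were seen (leaving out cells with other-lineage or cell cycle UMIs, or under 2000 UMIs). The ratio code was tested on simulated data. Coordinates are those of GRCm38 in the GENCODE annotation, matched by gene identifier. Python 3.11.15, scipy 1.17.1 and numpy 2.4.6 were used.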

Additional observations from a re-analysis of the deposited data

How the results depend on the processing

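The cause of a difference was not tested. With at least 3 Cd3 and 3 Cd8 UMIs required, the ratios of kept cells were 0.942 (Model over Control) and 0.413 (PD00 over Model), and those of cells with at least 2 Cd3 UMIs 0.713 and 0.431. With cells thinned to 2000 UMIs before the choice, which also left out shallower cells, they were 1.04 and 0.440 of kept cells, the first turned, and 0.678 of Cd3 cells in Model over Control, which was 0.451 with 1 Cd3 and 1 Cd8 UMI. Effector-set cells were 1.38 times as frequent in Model as in Control without thinning and 3.58 times with at least 2 UMIs required.

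Counts of genes past 2-fold, higher and lower, in Model over Control were 727 and 510 at a minimum of 20 UMIs, 78 and 62 at 200, 204 and 420 when scaled without mitochondrial, ribosomal protein and haemoglobin genes, 217 and 115 in effector-set only cells and 48 and 144 in homing-set only cells; 137 were lower without high Scrublet scores and 118 without other-lineage cells. In PD00 over Model they were 250 and 396 at 20 UMIs, 5 and 18 at 200, and 26 and 6 in homing-set only cells; 48 were higher without other-lineage cells and 40 without cells with cell cycle UMIs.

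Signs turned mostly inside the states, given here as log2 ratios. Values of set genes there, and medians of lists that contain them, depend in part on the choice of the cells. In effector-set only cells, Model over Control was -1.62 for Gzma, -0.10 for Fasl, -0.49 for Ccl5, -1.67 for Ccl4, -0.59 for Ifi27l2a, -0.36 for Birc5, -0.33 for Ube2c, -0.42 for Hist1h1b and 2.75 for Acod1, with list medians of -1.25 for effector cytokines and -0.021 for heat shock; PD00 over Model was 0.0078 for Gzmk, 0.57 for Ccl4 and -0.10 for Dusp10. In homing-set only cells, Model over Control was 0.16 for Ccr7, 0.29 for Lef1, 0.12 for S1pr1, -0.50 for Lgals1, 0.18 for Cd69, -0.67 for AW112010, 0.32 for Plcxd2, -0.072 for Gapdh, -0.46 for Trac and 0.24 for Ifngr2. List medians of Model over Control there, with the number of genes measured, were -0.12 for T cell identity (14), 0.20 for naive and homing (16) and -0.18 for cytotoxic genes (4). They were -0.075 for effector cytokine (2), -0.19 for effector and memory (10), -0.023 for heat shock (8), -0.16 for cell cycle (6) and -0.15 for glycolysis genes (9). In the same cells, PD00 over Model was -0.36 for Lef1, 0.17 for AW112010 and 0.0067 for Zfp36l2. With all cells, Model over Control turned to -0.013 for Ifi27l2a at 3 Cd3 and 3 Cd8 UMIs and -0.016 for Trac under the other scaling. It turned to 0.015 for Cd44 without high Scrublet scores, and to 0.34 for Cd44 and 0.76 for Zeb2 without other-lineage cells. For the type 2 list it was -0.10 at 200 UMIs, where Il4ra was the only member still measured. PD00 over Model turned to 0.061 for Ccl4, -0.16 for Cd44 and -1.39 for Acod1 at 3 Cd3 and 3 Cd8 UMIs, -0.016 for Cd44 without other-lineage cells, -0.023 for Cd44 and 0.064 for the cell cycle list without cells with cell cycle UMIs, and -0.22 for Ccl3 with equal weight per cell.

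Over settings that used all states, 1647 values of named genes kept their direction and moved little, 163 moved and 11 turned. Of list medians, 532 kept their direction and moved little, 16 moved and 2 turned. The main results, which are ratios of shares and counts of genes past 2-fold, were less stable: 68 values moved little, 23 moved and 1 turned. No paired analysis was possible because each treatment is 1 library. The PD00 sum, of 113 cells, sets the precision of PD00 over Model.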
